A study of Mus musculus with 36 samples.

Results

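The cell cycle and proliferation genes described here are 38 genes chosen by name, for their roles in DNA replication, mitosis and the G1 phase, out of the 55421 genes of the deposited count table. All 38 symbols matched a single mouse Ensembl identifier each, and 34 had enough reads to be tested, among 19478 tested genes in all. The 4 that did not pass the filter on low counts were the mitotic genes Ccnb1, Cdk1, Aurkb and Bub1. The RNA came from slices of the right hippocampus of C57BL/6 wild-type mice and of T41B mice, which carry the Thy1-hAPPLond/Swe transgene of Line 41, in which a Thy1 promoter cassette, active mainly in neurons, drives human APP with the London and Swedish mutations. Both genotypes were given BD10-2, which the series title calls a partial agonist of the receptors TrkB and TrkC, or its vehicle by oral gavage for 3 months, from 13 to 16 months of age. One slice type received theta-burst stimulation, given 3 times, each with 10 bursts set 200 ms apart and 4 pulses at 100 Hz in a burst, and the other a sham procedure of the same length, and slices were frozen at once afterwards. Vehicle groups held 4 mice for each genotype and slice type, and BD10-2 groups held 3 wild-type and 5 T41B mice. The sex of the mice is not given in the sources used here.

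Cells enter division through cyclins, which switch on cyclin-dependent kinases (CDKs) in order, and CDK inhibitors such as p21, the protein of Cdkn1a, hold them back. The MCM helicase opens DNA for copying in S phase, and Aurora and Polo kinases, the APC/C activator Cdc20 and a set of spindle proteins carry out mitosis. In the adult hippocampus nearly all neurons are out of the cycle, and dividing cells are mostly progenitors of the dentate gyrus, oligodendrocyte precursors and, in amyloid models, microglia. Several of the genes also have roles outside division, among them Myc, Cdkn1a and the D-type cyclins, which are transcribed in non-dividing cells too.

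Libraries held 11597555 to 28125842 expected counts in all, and mitochondrial genes took 2.0% to 5.4% of it. Levels are given as CPM, counts scaled to the normalised library size, and 3 counts in a sample, used as the floor, correspond to 0.059 to 0.247 CPM. A set of 6 slices, all from vehicle-treated mice, stood apart by choroid plexus RNA: the 9 choroid plexus markers summed to 1220 and 1000 CPM in the stimulated slices of wild-type animals Mouse1509 and Mouse1513, to 134 and 533 CPM in the sham slices and to 298 and 115 CPM in the stimulated slices of T41B animals Mouse1551 and Mouse1553, against 14.4 to 29.9 CPM in the other slices. Results of vehicle-treated mice are therefore also given without these 6 slices, an alternative chosen after the data were seen. That leaves only Mouse1510 and Mouse1579 among vehicle-treated T41B mice, and only Mouse1522 and Mouse1524 for the stimulated vehicle-treated wild-type slices. In these refits a loss of choroid plexus RNA and a loss of mice cannot be told apart. Mouse1509 and Mouse1513 make up 1 labelled batch and Mouse1551 and Mouse1553 another, so among vehicle-treated mice only the other 2 batches, A and C, hold both genotypes. Neuronal markers, which summed to 1850 to 3870 CPM, and astrocyte markers, at 6230 to 11800 CPM, were abundant in every slice.

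Promoter sequence is shown for a few of the members called in the stimulation or genotype results below. Others called there, among them Myc, Pcna, Mcm7 and Nusap1, are not shown. Of the 38 members, 30 had an entry in a RefSeq table of promoters (GRCm38.p6), which spans 250 bases before to 50 bases after a transcript start, in 35 windows. The elements searched for on both strands were the cell cycle homology region (CHR, TTTGAA) and the CCAAT box (CCAAT), which are known from promoters of G2 and M phase genes, and the core of the E2F site (TTCCCGC or TTCGCGC or TTGCCGC or TTGGCGC), known from G1 and S phase genes. The 4 upstream stretches of Cdc20, Ccnb2, Mki67 and Top2a are shown 5′ to 3′ on the strand of the gene up to the base before the start, with every match in capitals, on either strand.
Cdc20 (chr4:118437344-118437593, minus strand): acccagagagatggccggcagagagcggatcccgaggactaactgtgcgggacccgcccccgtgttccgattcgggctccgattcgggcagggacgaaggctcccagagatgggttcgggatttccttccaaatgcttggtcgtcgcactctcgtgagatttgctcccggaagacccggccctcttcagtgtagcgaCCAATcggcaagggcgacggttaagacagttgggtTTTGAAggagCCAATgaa
Ccnb2 (chr9:70421555-70421804, minus strand): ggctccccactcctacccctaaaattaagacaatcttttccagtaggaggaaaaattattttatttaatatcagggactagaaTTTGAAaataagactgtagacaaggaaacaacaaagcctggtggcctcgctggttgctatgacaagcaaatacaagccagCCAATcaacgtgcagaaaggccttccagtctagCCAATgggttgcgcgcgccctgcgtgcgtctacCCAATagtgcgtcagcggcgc
Mki67 (chr7:135716380-135716629, minus strand): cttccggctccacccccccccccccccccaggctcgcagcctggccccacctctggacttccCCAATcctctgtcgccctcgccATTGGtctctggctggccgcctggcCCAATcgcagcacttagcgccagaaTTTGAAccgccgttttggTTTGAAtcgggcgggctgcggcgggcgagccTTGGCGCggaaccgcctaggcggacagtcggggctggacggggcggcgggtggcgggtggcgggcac
Top2a (chr11:99024190-99024439, minus strand): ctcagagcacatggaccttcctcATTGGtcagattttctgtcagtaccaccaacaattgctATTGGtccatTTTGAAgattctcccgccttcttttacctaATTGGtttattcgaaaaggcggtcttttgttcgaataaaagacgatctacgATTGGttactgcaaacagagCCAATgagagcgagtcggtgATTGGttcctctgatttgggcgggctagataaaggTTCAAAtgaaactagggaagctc
The CHR lies close to the start in Cdc20 (18 to 13 bases before it) and farther out in Ccnb2 (167 to 162 bases), while Mki67 and Top2a have 2 copies each. Among the members with an entry the CHR was found in 10 of 30, the CCAAT box in 24 and an E2F core in 11. The 10 with a CHR were Aurka, Bub1b, Ccnb2, Cdc20, Cdk1, Kif11, Mcm2, Mki67, Plk1 and Top2a. Of these, Bub1b, Kif11 and Mcm2 had no call in the main edgeR fit described below, and Cdk1 was not tested. By window, the shares were 28.6% for the CHR, 71.4% for the CCAAT box and 34.3% for the E2F core, against 17.9%, 37.4% and 9.57% of all 32851 promoter windows of that length. These matches describe the letters of the windows only.

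For Cdkn1a, a target of p53 in textbooks, a p53 response element was searched for after the data were seen, as 2 adjoining copies of the consensus with its core letters intact and at most 1 mismatch in all outside them; the consensus reads the same on both strands. The window of the upstream of the 2 annotated starts holds a match, in capitals, 51 to 32 bases before that start.
Cdkn1a (chr17:29090729-29090978, plus strand): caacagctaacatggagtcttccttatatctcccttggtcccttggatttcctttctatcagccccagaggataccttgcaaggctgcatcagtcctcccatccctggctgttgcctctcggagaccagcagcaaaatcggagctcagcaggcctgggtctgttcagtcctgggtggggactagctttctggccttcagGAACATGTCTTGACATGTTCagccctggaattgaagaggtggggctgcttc
The element occurs in 18 of all promoter windows (0.0548%) and in no other member with an entry. The downstream of the 2 annotated starts of Cdkn1a has no match in its window.

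Per kilobase of annotated exon, the most abundant members were Pcna (median 13.2 CPM per kb over the 32 samples), Myc (12), Cdkn1a (11.2), Ccnd1 (9.26) and Ccnd2 (8.53). The least abundant were Ccnb1 (0.0488), Cdk1 (0.0319), Bub1 (0.0238) and Aurkb (0.0229). The genes at the top are the replication clamp, Myc and G1 regulators, and those at the bottom are some of the mitotic kinases and a mitotic cyclin. Between these ends, the mitotic kinases Plk1 and Aurka stood at 0.591 and 0.428, Mki67 at 0.268 and Top2a at 0.14 CPM per kb. In the GENCODE M21 annotation 11 members share exon bases with another gene: Mcm7, Ccnd1, Ccnd2, Ccnd3, Ccne2, Cdkn1a, Ccna2, Plk1, Cdc20, Nusap1 and Top2a. Whether the counting used strand is not given in the sources used here, so reads inside the shared bases may come from either gene. The shared stretches are parts of the exons, such as 53 of 1868 bases in Cdc20 and 1100 of 4709 in Ccnd1. The partner is on the opposite strand for all of these members but Top2a, and for Mcm7 partners lie on both strands.

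Stimulated and sham slices were compared separately for wild-type and T41B mice given vehicle or BD10-2 (4 combinations), to ask how theta-burst stimulation changed transcript levels. A gene was called at an edgeR quasi-likelihood adjusted p under 0.05 over all 19478 genes. Of the 34 tested members, 9 were called higher in vehicle-treated wild-type mice, where 8.21% of all tested genes were called higher, and 9 in vehicle-treated T41B mice (11.7% of all). With BD10-2, 8 were called higher in wild-type mice (6.29% of all) and 10 in T41B mice (13.3% of all). No member was called lower in any of the 4, where 4.1%, 9.83%, 2.58% and 9.52% of all genes were, in the same order. The members' median log2 fold change was 0.33, 0.15, 0.3 and 0.2, against -0.01, -0.05, -0.01 and -0.04 over all tested genes. Myc, Cdkn1a, Pcna, Mcm7 and Nusap1 were called in all 4 combinations. In vehicle-treated wild-type mice 7 members were called without the 6 choroid plexus slices, and in vehicle-treated T41B mice, where that leaves 2 mice, 3 were called: Myc, Cdkn1a and Pcna. Of all genes tested, 13.0% and 6.02% were called in either direction in these 2 refits, against 12.3% and 21.5% with all samples.

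**Figure D1:**
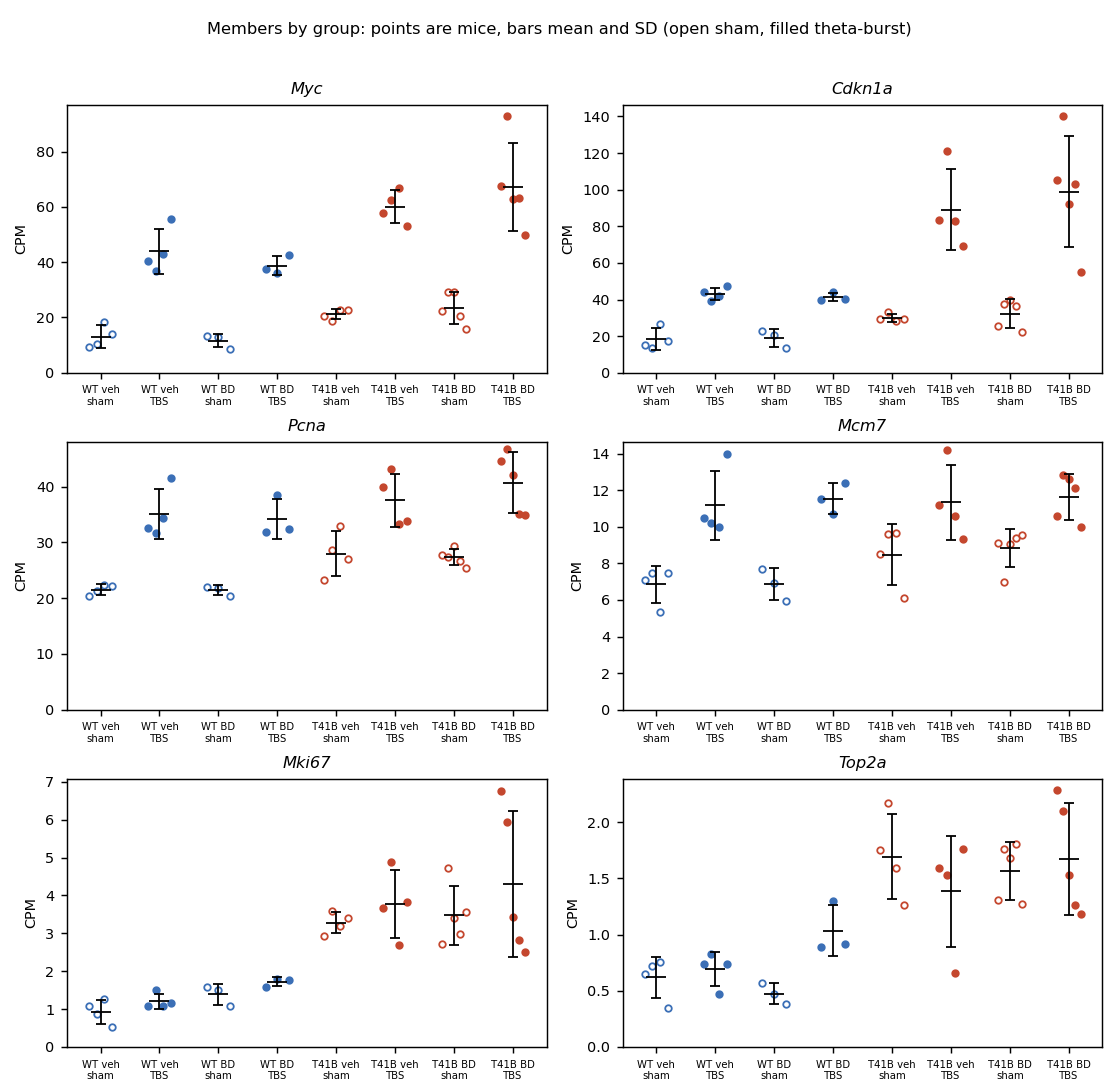
Level (CPM, linear axis from 0) of 6 members in the 8 groups, with a point per mouse, open for sham and filled for theta-burst (TBS) slices, blue for wild-type and red for T41B; bars show mean and SD. Myc, Cdkn1a and Pcna separate by slice type within each genotype and treatment, and Mcm7 does so except in vehicle-treated T41B mice, while Mki67 separates by genotype in both slice types and Top2a in sham slices.

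Myc (ENSMUSG00000022346, chromosome 15, 61985391 to 61990374, GRCm38) encodes a transcription factor that drives growth and ribosome production. In vehicle-treated wild-type mice it measured 9.31, 10.3, 18.5 and 13.9 CPM in sham slices and 40.6, 36.7, 42.9 and 55.6 CPM in stimulated slices, mice in number order. The lowest stimulated slice lay above the highest sham slice, and the log2 fold change was 1.75 (SE 0.20, adjusted p = 2.89e-07). In vehicle-treated T41B mice the sham slices held 20.7, 18.7, 22.6 and 22.7 CPM and the stimulated slices 57.8, 62.6, 67.0 and 53 CPM, again without overlap (log2 fold change 1.5, SE 0.20, adjusted p = 1.18e-06). The BD10-2 groups were separated in the same way: 13.3, 12.9 and 8.77 CPM against 37.7, 36 and 42.7 CPM in wild-type mice (1.72, SE 0.23, adjusted p = 5.33e-06), and 22.2, 29.3, 29.2, 20.4 and 15.9 CPM against 67.5, 92.8, 62.8, 63.1 and 49.8 CPM in T41B mice (1.52, SE 0.17, adjusted p = 7.5e-08). Within mice, the stimulated slice was above the sham slice in 14 of the 14 mice with both. The call was kept in every refit of the 4 comparisons under other settings or without a mouse.

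Cdkn1a (ENSMUSG00000023067, chromosome 17, 29090976 to 29100727), the gene of the CDK inhibitor p21, was likewise higher in every stimulated group. Sham slices of vehicle-treated wild-type mice held 15.4, 13.3, 26.8 and 17.4 CPM and stimulated slices 44.0, 39.4, 41.7 and 47.2 CPM, a log2 fold change of 1.24 (SE 0.23, adjusted p = 0.000313). Sham slices of vehicle-treated T41B mice held 29.3, 33.0, 28.4 and 29.4 CPM and stimulated slices 83.3, 121, 83.1 and 69.2 CPM (1.57, SE 0.22, adjusted p = 5.38e-06). No group pair overlapped, and the stimulated T41B slices were the highest of the 4 vehicle groups. With BD10-2 the levels were 22.6, 20.7 and 13.7 CPM in sham against 39.9, 44.0 and 40.1 CPM in stimulated wild-type slices (1.11, SE 0.26, adjusted p = 0.00518). In BD10-2-treated T41B mice they were 25.7, 37.5, 39.9, 36.5 and 22.2 CPM against 105, 140, 91.9, 103 and 54.9 CPM (1.62, SE 0.20, adjusted p = 3.14e-07). The call in BD10-2-treated wild-type mice was lost without Mouse1590 (adjusted p = 0.06), and the other 3 calls were kept in every refit. The test of the difference between genotypes in the response to stimulation gave 0.33 (adjusted p = 0.766) with vehicle and 0.51 (adjusted p = 1) with BD10-2, so a difference was not detectable.

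The other CDK inhibitors moved less. Cdkn1b, the gene of p27, was called higher in vehicle-treated wild-type mice, at 29.8 ± 4.96 CPM stimulated against 24.2 ± 2.15 CPM sham (SD, n = 4 each; log2 fold change 0.30, SE 0.10, adjusted p = 0.0464). That call was lost in 7 of 12 refits, among them without each of Mouse1509, Mouse1513, Mouse1522 and Mouse1524 in turn. Over all refits the adjusted p reached 0.151. Cdkn2c, the gene of p18, had 2.39 ± 0.578 against 1.42 ± 0.242 CPM in the same mice (0.74, SE 0.25, adjusted p = 0.0513), and 0.0335 with the mouse as a block, which pairs the slices of each animal. In BD10-2-treated wild-type mice it had 2.47 ± 0.154 against 1.37 ± 0.159 CPM (n = 3 each; 0.84, SE 0.28, adjusted p = 0.054). Cdkn2a, which encodes p16 and p19ARF and is a marker of senescent cells, held only 1 to 12 counts per sample and was at or under 3 counts in 11 of 32 samples, which limits what could be detected. Its largest difference, between genotypes in sham BD10-2 slices, missed the threshold (1.83, SE 0.61, adjusted p = 0.0788). The T41B slices of this comparison include Mouse1592 and Mouse1570, at 0.583 and 0.577 CPM, against 0.217 CPM in wild-type Mouse1590. With counts this low, Cdkn2a may have passed the filter on low counts through the same slices that set this fold change. Whether it did was not tested, so the size of the fold change may owe something to the filter.

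Among the replication genes the clamp and a single helicase subunit were called throughout. Pcna (ENSMUSG00000027342, chromosome 2, 132249162 to 132253314), the sliding clamp of DNA polymerase, measured 20.3, 21.3, 22.4 and 22.1 CPM in sham and 32.5, 31.7, 34.4 and 41.6 CPM in stimulated slices of vehicle-treated wild-type mice. Its log2 fold change was 0.70 (SE 0.11, adjusted p = 3.43e-05) there, 0.43 (SE 0.11, adjusted p = 0.00488) in vehicle-treated T41B mice, 0.67 (SE 0.13, adjusted p = 0.00051) in BD10-2-treated wild-type mice and 0.57 (SE 0.10, adjusted p = 4.34e-05) in BD10-2-treated T41B mice. The vehicle-treated T41B call was lost without Mouse1510 (adjusted p = 0.055). Mcm7, a subunit of the MCM helicase whose exons also hold the microRNAs Mir25 and Mir93 and overlap Ap4m1 and Cops6, measured 7.11, 7.49, 5.34 and 7.45 CPM in sham and 10.5, 10.2, 9.98 and 14 CPM in stimulated slices of vehicle-treated wild-type mice (0.70, SE 0.15, adjusted p = 0.00211). It was higher by 0.74 (SE 0.17, adjusted p = 0.00452) with BD10-2 in wild-type mice, and by 0.42 (SE 0.15, adjusted p = 0.0456) and 0.39 (SE 0.13, adjusted p = 0.0316) in vehicle- and BD10-2-treated T41B mice. In T41B mice with vehicle the lowest stimulated slice, at 9.31 CPM, lay within the sham range, which reached 9.67 CPM. Both wild-type calls of Mcm7 were kept in every refit, while the T41B calls were lost in 7 of 12 and 6 of 13, among them without Mouse1510, Mouse1551 or Mouse1579 and without the choroid plexus slices (0.49, adjusted p = 0.174) with vehicle, and without Mouse1557, Mouse1563, Mouse1564, Mouse1570 or Mouse1572 with BD10-2 (adjusted p up to 0.105).

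The other 5 helicase subunits, Mcm2, Mcm3, Mcm4, Mcm5 and Mcm6, were called in none of the 4 combinations, with log2 fold changes from -0.32 (Mcm2) to 0.57 (Mcm3). Nucleotide supply genes gave no call either. Rrm2, the regulated subunit of ribonucleotide reductase, had 0.75 in BD10-2-treated T41B mice (adjusted p = 0.0871, and 0.0359 with the mouse as a block), at 1.25 ± 0.347 CPM stimulated against 0.707 ± 0.254 CPM sham (SD, n = 5 each). Its partner Rrm1 stayed between 14 and 19.6 CPM in all 32 samples. Tyms, thymidylate synthase, had negative log2 fold changes in all 4 combinations, from -0.45 to -0.11, and none was called with all 32 samples; without Mouse1579 it was called lower in vehicle-treated T41B mice.

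Of the G1 cyclins, Ccne2, a cyclin E that activates CDK2 before S phase, was called in both vehicle groups. Its levels were 1.96, 1.51, 2.39 and 1.56 CPM in sham against 4.35, 4.02, 2.98 and 3.44 CPM in stimulated wild-type slices (log2 fold change 0.99, SE 0.27, adjusted p = 0.0133). In T41B mice they were 2.00, 0.987, 1.59 and 1.68 CPM against 2.41, 3.46, 4.35 and 2.86 CPM (1.07, SE 0.27, adjusted p = 0.00487). Neither pair of groups overlapped, but the calls did not hold without the 6 choroid plexus slices (0.78, adjusted p = 0.0997, and 0.51, adjusted p = 0.491). They were also lost without Mouse1509, Mouse1513 or Mouse1524 in wild-type mice and without Mouse1551 or Mouse1553 in T41B mice. Ccne1 was not called in any of the 4 combinations. Ccnd1, cyclin D1, was called in BD10-2-treated T41B mice, at 59.5, 69.8, 46.2, 58.9 and 48.8 CPM stimulated against 41.8, 45.3, 46.5, 39.5 and 44.8 CPM sham (0.38, SE 0.13, adjusted p = 0.0301), where 1 stimulated slice fell within the sham range. That call was lost without Mouse1557, Mouse1563, Mouse1564 or Mouse1572 (adjusted p up to 0.125). With the mouse as a block, Ccnd1 (0.34, adjusted p = 0.00524) and Ccnd3 (0.32, adjusted p = 0.0328) were also called in vehicle-treated wild-type mice and Ccnd2 (0.25, adjusted p = 0.0337) in BD10-2-treated T41B mice.

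The mitotic genes had low levels, and several were higher after stimulation. Cdc20 (ENSMUSG00000006398, chromosome 4, 118432901 to 118437352), whose product activates the APC/C and which also acts in neurons to shape dendrites, measured 0.119, 0.504, 0.251 and 0.346 CPM in sham and 0.834, 1.21, 1.12 and 0.983 CPM in stimulated slices of vehicle-treated wild-type mice. That is a log2 fold change of 1.77 (SE 0.39, adjusted p = 0.00218) without overlap. The lowest of these sham values, in Mouse1509, lay under the floor of that sample, 0.178 CPM. With BD10-2, Cdc20 measured 0.216, 0.209 and 0.433 CPM sham against 1.14, 0.93 and 1.18 CPM stimulated in wild-type mice (1.98, SE 0.41, adjusted p = 0.00175). The BD10-2-treated T41B slices held 0.593, 0.467, 0.578, 0.495 and 0.318 CPM sham against 1.05, 2.40, 1.47, 1.44 and 0.768 CPM stimulated (1.48, SE 0.31, adjusted p = 0.00054). In vehicle-treated T41B mice the values were 0.438, 0.346, 0.85 and 0.787 against 1, 1.53, 0.935 and 1.04 CPM, a log2 fold change of 0.89 that missed the threshold (SE 0.34, adjusted p = 0.0637) and passed it with the mouse as a block (0.92, adjusted p = 0.044). The wild-type call with BD10-2 was lost without Mouse1565 (adjusted p = 0.0712). Cdc20 was higher in the stimulated slice of 14 of 14 mice.

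Nusap1, a spindle protein that binds microtubules around chromosomes, measured 0.652, 0.721, 1.01 and 0.751 CPM in sham and 1.53, 1.54, 2.33 and 1.17 CPM in stimulated slices of vehicle-treated wild-type mice (log2 fold change 1.08, SE 0.30, adjusted p = 0.0177). Stimulated vehicle-treated T41B slices held 2.50, 2.16, 1.82 and 1.56 CPM against 0.75, 0.691, 0.478 and 0.945 CPM sham (1.49, SE 0.30, adjusted p = 0.000506). Neither pair overlapped, and with BD10-2 the log2 fold change was 1.39 (SE 0.33, adjusted p = 0.00685) in wild-type and 1.04 (SE 0.25, adjusted p = 0.00275) in T41B mice. The call was lost without Mouse1509, Mouse1513 or Mouse1522 in vehicle-treated wild-type mice (adjusted p up to 0.0854), without Mouse1565 or Mouse1590 in BD10-2-treated wild-type mice (up to 0.0928) and without the choroid plexus slices in vehicle-treated T41B mice (1.26, adjusted p = 0.101). Its exons overlap those of Oip5, a centromere gene on the opposite strand.

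Aurka, the Aurora A kinase of the spindle poles, was called in 3 combinations: 1.17 (SE 0.30, adjusted p = 0.00868) in vehicle-treated wild-type mice, 1.05 (SE 0.28, adjusted p = 0.00626) in vehicle-treated T41B mice and 0.76 (SE 0.24, adjusted p = 0.024) in BD10-2-treated T41B mice. In the first of these the sham slices held 0.534, 0.432, 0.692 and 0.693 CPM and the stimulated slices 1.34, 1.82, 1.08 and 1.11 CPM, without overlap. The vehicle calls did not hold without the choroid plexus slices (0.87, adjusted p = 0.0917, and 0.75, adjusted p = 0.27), nor without Mouse1509 or Mouse1513 and Mouse1553 respectively. The BD10-2 call was lost without Mouse1557, Mouse1563 or Mouse1564, without the filter on low counts and with the mouse as a block (0.78, adjusted p = 0.0671). Ccnb2, a cyclin B, was called at 0.94 (SE 0.30, adjusted p = 0.0211) in vehicle-treated T41B mice, 1.20 (SE 0.34, adjusted p = 0.0227) in BD10-2-treated wild-type mice and 0.86 (SE 0.27, adjusted p = 0.0222) in BD10-2-treated T41B mice. With the mouse as a block the first was kept (adjusted p = 0.0378), and those with BD10-2 were lost (1.13, adjusted p = 0.138, and 0.72, adjusted p = 0.134). The batch as a covariate also ended the call in BD10-2-treated wild-type mice (1.13, adjusted p = 0.0662), the fit of only the 2 groups ended those in T41B mice, and the fit without the filter on low counts ended all 3. Leaving out single mice also ended these 3 calls: Mouse1510, Mouse1551 or Mouse1553 in the first, Mouse1565, Mouse1586 or Mouse1590 in the second (adjusted p up to 0.237), and Mouse1557, Mouse1564, Mouse1572 or Mouse1592 in the third (up to 0.166). The first was also lost without the choroid plexus slices (0.87, adjusted p = 0.283). Birc5, the gene of survivin, was called in BD10-2-treated T41B mice, at 0.873 ± 0.242 CPM against 0.431 ± 0.185 CPM (SD, n = 5 each; 0.94, SE 0.26, adjusted p = 0.00773), a call lost with the mouse as a block (0.83, adjusted p = 0.104) and without Mouse1570. Birc5 was nonetheless higher in the stimulated slice of 14 of 14 mice.

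**Figure D2:**
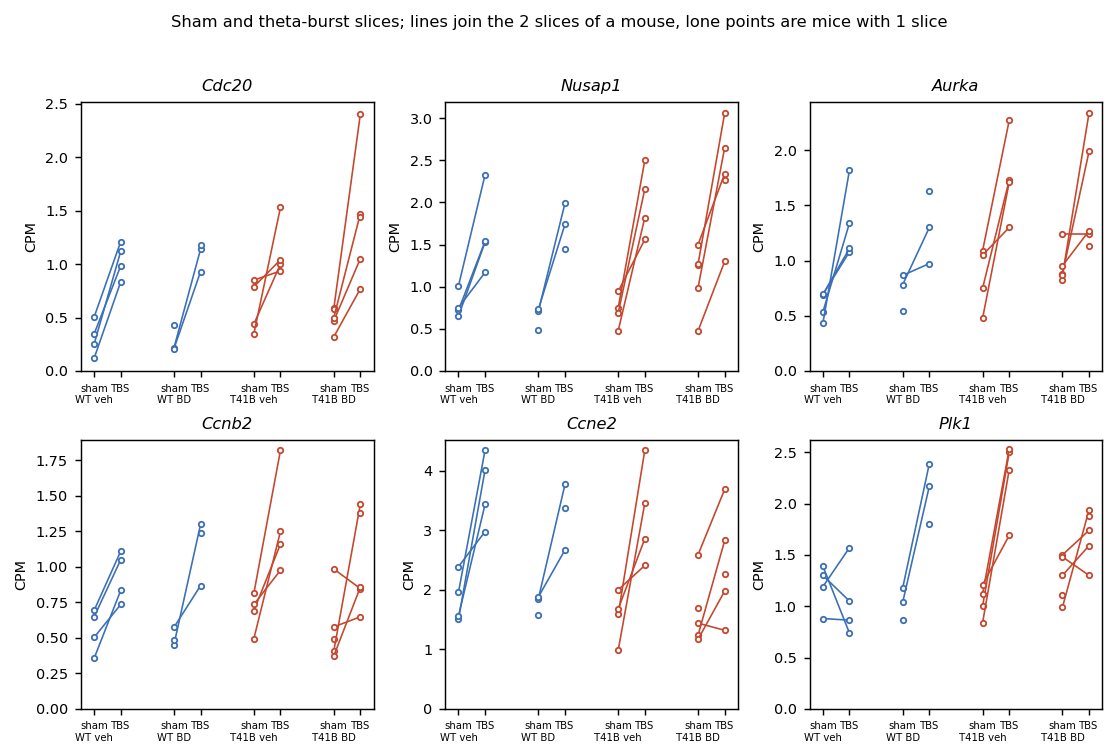
Level (CPM, linear axis from 0) of 6 members in sham and theta-burst (TBS) slices, with lines joining the slices of a mouse, blue for wild-type and red for T41B; lone points are mice with 1 slice sequenced. Cdc20 and Nusap1 rise along every line, in 14 of 14 mice, and Plk1 rises in 10 of 14.

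Plk1, the Polo-like kinase, was called in 2 of the 4 combinations. In vehicle-treated wild-type mice it measured 1.19, 1.3, 0.88 and 1.39 CPM in sham and 1.57, 1.05, 0.864 and 0.738 CPM in stimulated slices, which overlapped (log2 fold change -0.16, adjusted p = 0.731). In vehicle-treated T41B mice the stimulated slices held 2.50, 2.33, 2.53 and 1.69 CPM, all above the sham slices at 1, 0.839, 1.12 and 1.21 CPM (1.12, SE 0.22, adjusted p = 0.000376). BD10-2-treated wild-type mice had 2.39, 2.17 and 1.8 CPM stimulated against 1.18, 1.04 and 0.866 CPM sham (1.01, SE 0.24, adjusted p = 0.00695). The T41B call was lost without the choroid plexus slices (0.93, adjusted p = 0.0649). The wild-type BD10-2 call was lost without Mouse1565, Mouse1571 or Mouse1590 and with the mouse as a block (1.03, adjusted p = 0.0672). The difference in response between genotypes with vehicle was 1.28 (SE 0.32, adjusted p = 0.313), and that between treatments in wild-type mice 1.17 (SE 0.34, adjusted p = 1), so neither difference passed over all genes.

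The mean of the 4 stimulation responses, which uses all 32 samples, called 16 members higher and 2 lower, against 22.2% of all tested genes higher and 24.6% lower. Besides the genes above, Ccne1 (0.25, SE 0.08, adjusted p = 0.0119), Cdkn2c (0.54, SE 0.12, adjusted p = 0.000627), Mcm3 (0.35, SE 0.10, adjusted p = 0.00642) and Rrm2 (0.62, SE 0.18, adjusted p = 0.00633) were higher. The 2 lower members were Cenpe, the kinetochore motor (-0.49, SE 0.15, adjusted p = 0.00828), and Tyms (-0.28, SE 0.09, adjusted p = 0.0135). Cenpe was not called with the mouse as a block (-0.38, adjusted p = 0.072). Tyms was not called without the choroid plexus slices (-0.26, adjusted p = 0.0845) or in the fit without the filter on low counts. Cdkn1b was the only member called in a single combination and not in the mean. Mki67, Top2a, Kif11, Tpx2, Bub1b, Ccna2, E2f1, Mcm2, Mcm4, Mcm5, Mcm6, Rrm1, Ccnd2, Ccnd3 and Cdkn2a were called in none of these comparisons by edgeR with all 32 samples and no covariate. In other edgeR fits, Ccnd2 was called in BD10-2-treated T41B mice with RLE factors, the batch as a covariate, the mouse as a block or only the 2 groups, and Mcm2 there with the deeper library of each pair. Ccnd3 was called in vehicle-treated wild-type mice with the block, and Mcm6 in vehicle-treated T41B mice without Mouse1510. In the mean response Kif11 was called without Mouse1509, and Mcm5 and Ccna2 without Mouse1553. Cdkn2c was called in both wild-type combinations with DESeq2 and with the batch as a covariate, and also with the block in vehicle-treated and with only the 2 groups in BD10-2-treated wild-type mice. In the latter mice Ccne2 was called with DESeq2, the deeper library of each pair or only the 2 groups, and Ccnd1 with only the 2 groups. DESeq2 also called Ccnd2 in BD10-2-treated T41B mice. The mitochondrial share of counts moved with stimulation: it was higher in the stimulated slice of 13 of the 14 mice with both slices, with a median of 3.5% against 2.9% in sham slices, and lower in Mouse1579 (2.52% against 2.73%). Its part in the stimulation results was not tested. Markers of cell types moved over the same contrasts. Of the 10 microglial markers, 8, 8, 8 and 7 were called lower and none higher in the 4 combinations, and their summed level fell from 299 to 391 CPM in sham to 164 to 246 CPM in stimulated slices of vehicle-treated wild-type mice. Markers of neural progenitors and new neurons summed higher after stimulation without overlap in 3 combinations, from 102 to 114 CPM in sham to 129 to 146 CPM in stimulated slices of vehicle-treated T41B mice, from 94 to 109 to 115 to 130 CPM in BD10-2-treated wild-type mice and from 101 to 122 to 127 to 181 CPM in BD10-2-treated T41B mice. In vehicle-treated wild-type mice the sums, 92.1 to 113 and 110 to 138 CPM, overlapped. Of the 5 tested genes of that list, 2 were called higher in each combination, and 1, 2, 1 and 1 lower. In vehicle-treated T41B mice the summed ependymal markers lay lower without overlap in stimulated slices, at 9.24 to 13.5 against 15.4 to 36.6 CPM, and the summed astrocyte markers higher without overlap, at 8990 to 10100 against 6230 to 8720 CPM. Neuronal sums were lower without overlap in BD10-2-treated wild-type mice, at 2450 to 3000 against 3140 to 3710 CPM, and in the mean response 5 of 6 neuronal markers were called lower and 5 of 6 astrocyte markers higher. In these tissue samples fewer cells of a type and less RNA per cell cannot be told apart. The part of these marker changes in the member results was not tested.

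**Figure D3:**
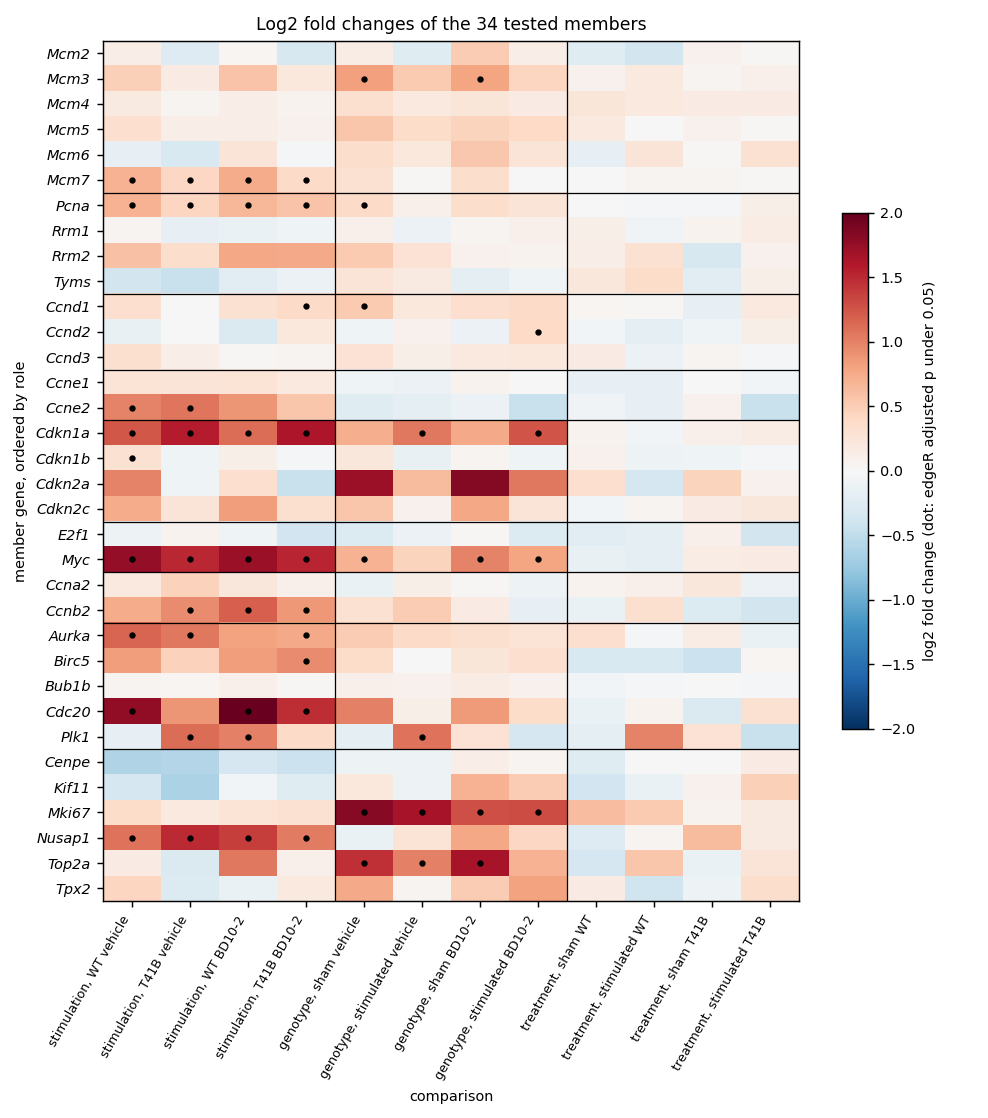
Log2 fold change of the 34 tested members (vertical axis, grouped by role) in 12 comparisons (horizontal axis), from blue for lower to red for higher, with a dot where the edgeR adjusted p was under 0.05. Dots in the 4 stimulation columns sit mainly on Mcm7, Pcna, Cdkn1a, Myc, Cdc20, Aurka, Ccnb2 and Nusap1, those in the 4 genotype columns mainly on Mki67, Top2a and Myc, and the 4 treatment columns have none.

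Genes of the same pathways from companion lists showed which neighbours were called with the members after stimulation, here for the mean response, naming the largest changes among called genes that averaged at least 1 CPM. The counts stand against 22.2% of all tested genes called higher and 24.6% lower in that response, and the shares of p53 genes lower and of mitotic genes higher lie near these. Of 22 tested genes of the p53 and DNA damage response, 13 were called higher and 7 lower. Fas, a death receptor gene (2.90, SE 0.13), Gadd45a (1.52, SE 0.10) and Gadd45b (1.37, SE 0.10), growth arrest genes, were the highest. Trp53 itself, named after its values were seen, was higher by 1 (SE 0.06). Polk (-0.37, SE 0.06), Ccng1 (-0.25, SE 0.05) and Btg2 (-0.21, SE 0.07) were the lowest. In the G1 and Rb list 11 of 24 were higher and 2 lower, with Cdk6 (1.37, SE 0.12), Cdk2 (0.81, SE 0.10) and Cdkn1c (0.76, SE 0.17) at the top and Ccnh (-0.34, SE 0.06) among the lower ones. In the Myc list 9 of 15 were higher and 2 lower, led by Odc1 (1.53, SE 0.09), a Myc target for polyamine synthesis, Mxd1 (0.58, SE 0.09) and the nucleolar gene Nop56 (0.56, SE 0.03), with Mycn (-0.27, SE 0.09) and Mxd4 (-0.12, SE 0.04) lower. Replication companions gave 11 of 21 higher, with Uhrf1 (1.3, SE 0.13), the licensing factor Cdt1 (1.23, SE 0.13) and Cdc6 (0.76, SE 0.14) first, and 2 lower, Prim1 (-0.37, SE 0.10) and Pold1 (-0.30, SE 0.08). Mitotic companions gave 8 of 27 higher, including Prc1 (0.76, SE 0.18), Foxm1 (0.67, SE 0.09) and Mybl2 (0.51, SE 0.14), and 3 lower, Racgap1 (-0.69, SE 0.12), Smc2 (-0.50, SE 0.08) and Mad2l1 (-0.31, SE 0.07). All of these are edgeR calls at an adjusted p under 0.05, and the median log2 fold change was 0.36, 0.09, 0.28, 0.26 and 0.07 in the 5 lists in that order against -0.03 over all tested genes.

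T41B mice were compared with wild-type mice in sham and in stimulated slices of each treatment, to ask what the amyloid genotype changed. With vehicle, 6 of 34 members were called higher in sham slices (5.0% of all tested genes) and 4 in stimulated slices (4.74%). With BD10-2, 4 were called higher in sham slices (4.31%) and 4 in stimulated slices (8.19%), the last share of members, 11.8%, being close to that of all genes. No member was called lower, where 1.24%, 1.05%, 1.14% and 2.36% of all genes were, in the same order. The members' median log2 fold change was 0.32, 0.12, 0.32 and 0.26, against 0.001, -0.03, 0.007 and -0.02 over all tested genes. With the batch as a covariate 2 members, Mki67 and Top2a, were called in vehicle-treated sham slices. Without the 6 choroid plexus slices 1 was called there, Mki67, and 2 in stimulated slices, Mki67 and Plk1. Of all genes tested in these 3 refits, 1.81%, 1.28% and 1.17% were called in either direction, against 6.24% in sham and 5.79% in stimulated vehicle slices with all samples and no covariate.

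Mki67 (ENSMUSG00000031004, chromosome 7, 135689784 to 135716361), the gene of the Ki-67 antigen that coats mitotic chromosomes and marks cycling cells, was the only member called in all 4. Vehicle-treated sham slices held 1.07, 0.865, 1.26 and 0.52 CPM in wild-type and 2.94, 3.6, 3.19 and 3.41 CPM in T41B mice (log2 fold change 1.82, SE 0.30, adjusted p = 0.000137). Stimulated slices held 1.07, 1.49, 1.08 and 1.17 CPM against 3.68, 4.88, 2.7 and 3.84 CPM (1.65, SE 0.28, adjusted p = 0.000247). Every T41B slice lay above every wild-type slice in both. With BD10-2 the sham slices held 1.59, 1.51 and 1.08 CPM in wild-type and 2.71, 4.72, 3.41, 2.97 and 3.55 CPM in T41B mice (1.29, SE 0.29, adjusted p = 0.00495), and the stimulated slices 1.58, 1.8 and 1.77 CPM against 6.77, 5.93, 3.42, 2.83 and 2.51 CPM (1.31, SE 0.28, adjusted p = 0.00169), again without overlap. The batches that hold both genotypes gave T41B above wild type in 7 of 7 settings of batch and slice type, by 0.8 to 2.25 on the log2(CPM + 0.25) scale. In 5 of these 7 settings each genotype is 1 mouse. In batches A and C the sham and stimulated slices come from the same mice, and so do those of batch I except for Mouse1572. The settings are therefore not independent. The sham BD10-2 call was lost without Mouse1590 (adjusted p = 0.0625), and the other 3 were kept in every refit.

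Top2a (ENSMUSG00000020914, chromosome 11, 98992943 to 99024189), the topoisomerase that untangles replicated DNA, was called in 3 of the 4. Vehicle-treated sham slices held 0.652, 0.721, 0.754 and 0.346 CPM in wild-type and 1.75, 2.17, 1.59 and 1.26 CPM in T41B mice (1.46, SE 0.30, adjusted p = 0.00239; 1.29, adjusted p = 0.0579, without the choroid plexus slices). Sham BD10-2 slices held 0.571, 0.47 and 0.379 CPM against 1.31, 1.76, 1.68, 1.81 and 1.27 CPM (1.65, SE 0.31, adjusted p = 0.000917), a call kept in all 14 refits. In neither did the genotypes overlap. In stimulated vehicle slices, 0.741, 0.826, 0.475 and 0.738 CPM stood against 1.59, 1.53, 0.66 and 1.76 CPM, where 1 T41B slice fell within the wild-type range (1, SE 0.29, adjusted p = 0.0381). This last call was lost in 9 of 15 refits, among them without Mouse1509, Mouse1510, Mouse1513, Mouse1522, Mouse1551 or Mouse1579. Over all refits its adjusted p reached 0.166. Within batches T41B was above wild type in 7 of 7 settings, by 0.29 to 1.42 on the log2(CPM + 0.25) scale. The promoter windows of Mki67 and Top2a printed above each hold 2 CHR copies. A CHR was also found in members without a genotype call, such as Bub1b and Kif11.

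Myc was also higher in T41B mice, in sham slices with vehicle (0.70, SE 0.20, adjusted p = 0.0332) and BD10-2 (0.99, SE 0.21, adjusted p = 0.00327) and in stimulated slices with BD10-2 (0.79, SE 0.20, adjusted p = 0.00816). With vehicle the sham slices did not overlap between genotypes, with a highest wild-type value of 18.5 CPM and a lowest T41B value of 18.7 CPM. The vehicle call was lost with the batch as a covariate (0.44, adjusted p = 0.141), without Mouse1509, Mouse1513, Mouse1551, Mouse1553 or Mouse1579 and without the choroid plexus slices (0.75, adjusted p = 0.24). The BD10-2 calls were lost without Mouse1590 in sham slices (adjusted p = 0.053) and without Mouse1565 or Mouse1571 in stimulated slices (up to 0.0522). Within batches T41B was higher in 6 of 7 settings, from -0.07 to 0.84. Cdkn1a was called in stimulated slices, by 1.05 (SE 0.22, adjusted p = 0.00249) with vehicle and 1.26 (SE 0.24, adjusted p = 0.000381) with BD10-2. In sham slices it was higher by 0.72 (adjusted p = 0.0578) and 0.75 (adjusted p = 0.058), which missed the threshold. DESeq2 and the deeper library of each pair called Cdkn1a in both sham comparisons, as did the fit without the filter with vehicle and the batch covariate with BD10-2. Without the choroid plexus slices the stimulated vehicle value was 0.79 (adjusted p = 0.308). T41B exceeded wild type for Cdkn1a within batches in 7 of 7 settings, by 0.13 to 1.21. Aurka (0.05 to 0.6) and Rrm2 (0.02 to 0.73), which had no genotype call, also did so in 7 of 7.

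The remaining genotype calls were smaller or single. Mcm3 was higher in T41B sham slices, at 4.38 ± 0.798 against 2.47 ± 0.852 CPM with vehicle (SD, n = 4 each; 0.82, SE 0.21, adjusted p = 0.0173) and 4.57 ± 0.705 (n = 5) against 2.63 ± 0.181 CPM (n = 3) with BD10-2 (0.79, SE 0.22, adjusted p = 0.0262). With the batch as a covariate the first was 0.47 (adjusted p = 0.43) and the second 0.68 (adjusted p = 0.0482). The first was also lost without Mouse1509, Mouse1513, Mouse1553 or Mouse1579, and the second without Mouse1565, Mouse1570, Mouse1571 or Mouse1590 (adjusted p up to 0.124). Ccnd1 (0.53, SE 0.14, adjusted p = 0.022) and Pcna (0.38, SE 0.11, adjusted p = 0.0359) were called in vehicle-treated sham slices and lost with the batch as a covariate (0.23, adjusted p = 0.633, and 0.20, adjusted p = 0.625) and without Mouse1509, Mouse1513, Mouse1522, Mouse1551 or Mouse1553. Plk1 was called in stimulated vehicle slices (1.09, SE 0.22, adjusted p = 0.00144), where the T41B slices at 1.69 to 2.53 CPM lay above the wild-type slices at 0.738 to 1.57 CPM. This call was lost with only the 2 groups compared (1.1, adjusted p = 0.0576). Within batches T41B lay above wild type in 4 of 7 settings over both slice types and treatments, from -0.23 to 1.3 on the log2(CPM + 0.25) scale. The settings that match the call, stimulated slices of batches A and C, gave 1.3 and 0.98, with 1 mouse per genotype in each. Ccnd2, a D-type cyclin of progenitors, was called in stimulated BD10-2 slices, at 88.7 ± 6.18 (n = 5) against 67.3 ± 5.39 CPM (n = 3; 0.40, SE 0.10, adjusted p = 0.00763), and lost without Mouse1565 (adjusted p = 0.0857).

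Markers of other cell types moved with the genotype. The 10 microglial markers summed to 656 to 1250 CPM in T41B and 299 to 391 CPM in wild-type sham slices with vehicle, and 9 of 10 were called higher. In the other 3 genotype comparisons 6, 8 and 10 of 10 were called higher, with sums of 393 to 578 against 164 to 246 CPM in stimulated vehicle slices, 801 to 1130 against 329 to 412 CPM in sham BD10-2 slices and 507 to 839 against 181 to 229 CPM in stimulated BD10-2 slices. Of 6 oligodendrocyte precursor markers at most 1 was called in any of the 4, and of the 5 tested markers of neural progenitors and new neurons at most 1. T and NK cell markers were low in sum but higher in T41B mice without overlap in all 4 comparisons: 1.13 to 3.8 against 0.346 to 0.793 CPM and 1.04 to 2.33 against 0.389 to 0.834 CPM in sham and stimulated vehicle slices, and 1.01 to 2.33 against 0.453 to 0.626 CPM and 1.26 to 4.53 against 0.487 to 0.532 CPM in those with BD10-2. Only 3 of these 8 markers had enough reads to be tested, and 0, 0, 0 and 1 were called higher. Nkg7 had a median of 0 CPM over the 32 samples. Astrocyte sums were higher in T41B mice without overlap in stimulated slices, at 8990 to 10100 against 7070 to 8740 CPM with vehicle and 8760 to 11800 against 7440 to 8460 CPM with BD10-2, and 2, 2, 2 and 5 of 6 markers were called higher in the 4 comparisons. Neuronal sums were lower without overlap in sham BD10-2 slices, at 2510 to 2940 against 3140 to 3710 CPM, and 1, 2, 2 and 0 of 6 markers were called lower. Neutrophil markers Camp, Elane, Ly6g and Ngp also had a median of 0 CPM. The part of these cell types in the member differences was not tested. Companion genes were called with 6 higher and 1 lower of 109 tested in vehicle-treated sham slices, against 5.0% and 1.24% of all tested genes there, with 6 higher and 0 lower in stimulated vehicle slices (4.74% and 1.05%), 10 and 1 in sham BD10-2 slices (4.31% and 1.14%) and 12 and 1 in stimulated BD10-2 slices (8.19% and 2.36%). Of the 22 p53 and DNA damage response companions, 4, 4, 4 and 6 were called higher in these 4 comparisons, and their sums lay higher in T41B mice without overlap in stimulated slices, at 1080 to 1320 against 976 to 1070 CPM with vehicle and 1050 to 1460 against 995 to 1030 CPM with BD10-2. Replication and origin companions summed higher in T41B sham slices without overlap, at 113 to 141 against 99.7 to 112 CPM with vehicle and 116 to 129 against 101 to 105 CPM with BD10-2, with 0 and 2 of 21 tested called higher. Mitotic companions did so in sham BD10-2 slices, at 138 to 165 against 120 to 136 CPM, with 2 of 27 called higher, and Myc network companions in sham vehicle slices, at 890 to 959 against 820 to 881 CPM, with 0 of 15 called. The other 14 of 20 sums of list and comparison overlapped between genotypes. Those called higher in vehicle-treated sham slices included Cdk6 (0.85, SE 0.24), Kif4 (0.91, SE 0.26), Btg1 (0.80, SE 0.14), Gadd45a (0.77, SE 0.20) and Gadd45b (0.87, SE 0.20), and the lower one was Cdc25b (-0.50, SE 0.14), a phosphatase that activates CDK1.

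BD10-2 was compared with vehicle within each genotype and slice type. By edgeR, the 4 treatment comparisons gave no call for a member or any other gene (0.0% of all tested genes), and the 4 interaction comparisons likewise called no gene. At an unadjusted p under 0.05 the members numbered 0, 1, 1 and 1 in sham wild-type, stimulated wild-type, sham T41B and stimulated T41B slices, among 374, 1093, 431 and 759 of all tested genes. DESeq2 called no member either, and 0, 25, 0 and 0 of all genes. The largest member difference was Plk1 in stimulated wild-type slices, at 2.12 ± 0.298 CPM with BD10-2 (n = 3) against 1.06 ± 0.368 CPM with vehicle (SD, n = 4; log2 fold change 0.99, SE 0.23, adjusted p = 0.26). The log2 fold changes of all members ran from -0.44 to 0.99 over the 4 comparisons. For the interactions, the numbers of members at an unadjusted p under 0.05 were 2, 2, 1 and 1, among 1683, 846, 337 and 526 of all tested genes, and DESeq2 called no member and 4, 20, 0 and 1 of all genes. Since no labelled batch contains both BD10-2 and vehicle, a treatment effect and a batch effect cannot be told apart.

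The members that did not pass the filter, and Cdkn2a, which did, were given against the floor of 3 counts. Cdc20 and Birc5 also lay under this floor in the samples named above. Cdk1, the kinase that starts mitosis, held 0 to 15 counts per sample and was at or under 3 counts in 18 of 32 samples. Its partner Ccnb1, cyclin B1, held 0 to 16 counts and was at or under the floor in 12 samples. Aurkb, the Aurora B kinase of the chromosomal passenger complex, held 0 to 8 counts (23 samples at or under the floor), and Bub1, a spindle checkpoint kinase, 0 to 7 counts (26 samples). Cdk1 measured 0.0593, 0, 0.126 and 0 CPM in sham slices of vehicle-treated wild-type mice and 0.125, 0.0494, 0.797 and 0.21 CPM in those of T41B mice, which overlapped. Differences in these 4 genes were not tested, at this depth. Other mitotic members with a few more reads, Ccna2 at 0.682 to 1.87 CPM and Bub1b at 1.62 to 5.53 CPM over all samples, passed the filter and were called in no comparison by edgeR with all 32 samples and no covariate; without Mouse1553 Ccna2 was called in the mean stimulation response. E2f1, the S phase transcription factor, lay at 1.79 to 7.31 CPM, and Kif11 at 0.246 to 2.29 CPM, Tpx2 at 0.577 to 2.44 CPM, Mcm4 at 8.6 to 16.4 CPM, Mcm5 at 1.84 to 4.61 CPM and Mcm6 at 6.60 to 15.9 CPM, all without a genotype call in that edgeR fit. Other fits called some of them: edgeR called Mcm4, Mcm5 and Mcm6 higher in T41B mice in sham vehicle slices without Mouse1510 and Mcm5 without Mouse1524, and Mcm6 in sham BD10-2 slices with only the 2 groups. DESeq2 called Mcm5 higher in T41B mice in sham vehicle slices, and Mcm2, Mcm6, Pcna and Cdkn2c in sham BD10-2 slices, where edgeR also called Pcna and Cdkn2c with the deeper library of each pair or only the 2 groups, and Ccnd1 with the latter.

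**Figure D4:**
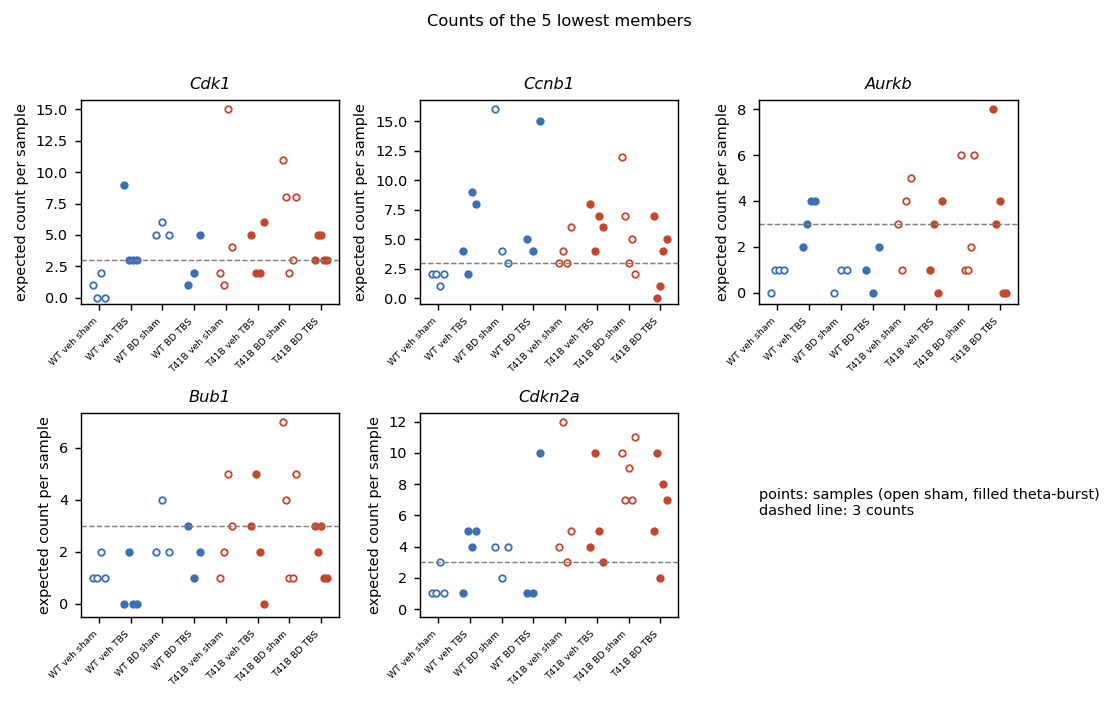
Expected count per sample (vertical axis, linear) of the 5 members with the lowest levels in the 8 groups, with a point per sample, open for sham and filled for theta-burst (TBS) slices; the dashed line marks 3 counts. Bub1 is at or under the line in 26 of 32 samples and Aurkb in 23, and the highest count of any of the 5 genes is 16.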

How the data were processed

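RNA from hippocampal slices was sequenced after ribosomal RNA removal with a stranded KAPA RiboErase kit from 200 ng, per the labels' protocols. The deposited values are RSEM expected counts per gene, which the authors made from their reads. The submitters' processing notes name cutadapt 1.8.1, STAR 2.7.6a, RSEM 1.3.1, featureCounts 1.6 and SAMtools 1.11, and the builds GRCm38.p6 and mm10; the annotation release and the strand setting are not given in the sources used here.

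The table held 36 libraries of 18 mice, and 4 pairs of libraries with the same label were summed, which gave 32 samples. Counts were rounded, filtered with filterByExpr (minimum count 10), scaled by TMM (factors 0.91 to 1.063) and fitted with edgeR 4.0.16 (R 4.3.3) as 8 group means with no covariate. Quasi-likelihood F tests were adjusted by Benjamini-Hochberg over 19478 genes, with calls at 0.05. CPM uses the TMM-scaled library sizes. Fits were tested on simulated data.

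Alternatives were DESeq2 1.42.0, RLE factors, no filter, the deeper library of each pair, only the groups compared, a batch covariate, the mouse as a block, and leaving out each mouse. Leaving out 6 slices with choroid plexus RNA and the p53 element search were chosen after seeing the data. The mouse number in the labels pairs the slices of 14 mice: deviations from the group means correlated at 0.2 on average in the same mouse (0.02 to 0.41) and at -0.06 over 52 pairs of different mice. The members and lists were chosen with earlier results of these data known. All 38 members are named. Companion genes are named where called, up to 3 in each direction with the largest change among those averaging at least 1 CPM, and any other is said to be chosen after its values were seen. Positions are from GENCODE M21 on GRCm38, and promoter sequences from RefSeq on GRCm38.p6. Samples are different mice within a group.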

Additional observations from a re-analysis of the deposited data

Results flagged for a closer look

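Of 228 groups of 4 or 5 samples examined for the 38 members, 13 (5.7%) held a sample far from the others by Dixon's criterion; chance gives about 1 in 20. Mouse1524 had 3 of them, all in the stimulated slice of a vehicle-treated wild-type mouse. There Kif11, a spindle motor, measured 0.246 CPM against 1.49 to 1.56 CPM in the other mice of the group, E2f1 7.31 against 3.1 to 3.63 CPM, and Mcm7 14 against 9.98 to 10.5 CPM. In the same group Bub1 was at 0.11 CPM in Mouse1513, which is 2 counts and under the floor of 3, and at 0 in the others, so single reads set this gap.

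In sham slices of vehicle-treated wild-type mice, Ccnd3 was low in Mouse1513 (12.7 against 18.3 to 19.1 CPM) and Cdkn2a high in Mouse1522 (0.189 against 0.0577 to 0.0721 CPM, which is 3 counts against 1 in each other mouse, all at or under the floor). Among vehicle-treated T41B mice, Kif11 was high in the sham slice of Mouse1553 (2.29 against 1.57 to 1.69 CPM) and Tyms low in that of Mouse1579 (2.26 against 3.24 to 3.44 CPM). In their stimulated slices Mcm4 was high in Mouse1553 (13.5 against 11.2 to 11.4 CPM) and Ccnb1 low in Mouse1551 (0.227 against 0.364 to 0.39 CPM). In sham slices of BD10-2-treated T41B mice, Bub1b was low in Mouse1557 (2.45 against 3.6 to 4.04 CPM), E2f1 high in Mouse1564 (6.01 against 3.22 to 3.94 CPM) and Mcm7 low in Mouse1563 (7.0 against 9.07 to 9.53 CPM).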

How the results depend on the processing

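No called member value changed direction under any alternative. Calls were kept for 72 of 72 values with DESeq2 and with RLE factors, 69 of 72 with the deeper library of each pair, 67 of 72 with the batch covariate, 64 of 72 without the filter, 43 of 54 with only the groups compared, 48 of 54 with the mouse as a replicate block, 30 of 46 without the 6 choroid plexus slices and 549 of 632 when a mouse was left out. The block changed no call beyond those given above.

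The number of members called by genotype in vehicle-treated sham slices, 6 with 6.24% of all genes tested called in either direction, was 2 with the batch covariate (1.81%), 2 with only the 2 groups (3.08%), 1 without the choroid plexus slices (1.28%) and 2 to 9 without a mouse, with 2 or 3 without Mouse1509, Mouse1513, Mouse1551 or Mouse1553 (2.86% to 4.09%) and 9 without Mouse1510 (10.6%). In stimulated vehicle slices, 4 (5.79%) became 2 with only the 2 groups (4.57%) and 2 without the choroid plexus slices (1.17%). In sham BD10-2 slices, 4 (5.45%) became 9 with DESeq2 (8.41%), 7 with the deeper library (8.06%), 8 with only the 2 groups (9.58%) and 1 to 6 without a mouse, the lowest without Mouse1590 (2.43%) and the highest without Mouse1592 (4.78%). In stimulated BD10-2 slices it was 2 to 4, the lowest without Mouse1565 (5.32% against 10.6%). After stimulation, leaving out a mouse gave 5 to 7 members in vehicle-treated wild-type mice (Mouse1509, 6.38%, or Mouse1513, 7.61%, against 12.3%), 4 to 7 in BD10-2-treated wild-type mice (Mouse1565, 3.82%, or Mouse1590, 4.6%, against 8.87%) and 6 to 9 in BD10-2-treated T41B mice (Mouse1564, 16.4% against 22.9%), and 3 were called in vehicle-treated T41B mice without the choroid plexus slices (6.02% against 21.5%). The cause was not tested. Treatment comparisons allow no batch fit. Genes at a few counts per sample, mainly mitotic ones, limit what this depth can show.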
